A study of Arabidopsis thaliana with 36 samples.

Results

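The 10 genes described here encode sugar transporters of Arabidopsis thaliana: 6 SWEET facilitators, 2 sucrose symporters and 2 hexose symporters. The SWEET genes are SWEET2 (AT3G14770), SWEET11 (AT3G48740), SWEET12 (AT5G23660), SWEET13 (AT5G50800), SWEET16 (AT3G16690) and SWEET17 (AT4G15920). The sucrose symporters are SUC1 (AT1G71880) and SUC2 (AT1G22710), and the hexose symporters are STP1 (AT1G11260) and STP13 (AT5G26340). They were taken by locus identifier from the 32833 genes of the count tables. All 10 passed the filter on low counts, among the 20355 genes tested in roots and the 20100 tested in shoots. Messenger RNA of seedling roots and shoots was sequenced in 36 libraries, 3 for each of 12 groups. Seedlings of phyAB, named for the light receptors phytochrome A and phytochrome B, of hy5, named for the light-signalling bZIP factor HY5, and of Col-0 wild type were sampled either at 27 °C by day and 21 °C by night or at 21 °C by day and 15 °C by night. Every group grew in 16 h of light and 8 h of dark, with the same labelled light intensity, and was collected at an age of 6 days. The length of the warm treatment is given as 4 h in 1 place of the submitters' description and as 3 days, after 3 days at the lower temperature, in another. The sources used here name no allele. Nothing says that the 3 replicates of a group came from separate cultures, so p-values measure the spread between libraries, which may be technical.

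Sucrose made in leaves moves out of the mesophyll through phloem parenchyma cells, where SWEET11 and SWEET12 release it to the cell wall space, and SUC2 then loads it with protons into the companion cells of the phloem. SWEET13 belongs to the same sucrose-exporting clade, and SUC1 is a proton symporter with high affinity for sucrose that is also found in roots, trichomes and pollen. STP1 and STP13 take up monosaccharides from the cell wall space. SWEET2, SWEET16 and SWEET17 are carriers of the vacuolar membrane, SWEET17 mainly for fructose, SWEET16 for glucose, fructose and sucrose, and SWEET2 for glucose in roots.

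Counted reads ran from 14810514 to 24006279 in root libraries and from 17008543 to 23880472 in shoot libraries. Levels below are CPM, counts set to a common library size with TMM factors of the organ unless a shared scale is named, and tests are edgeR quasi-likelihood tests with Benjamini-Hochberg adjustment over all genes tested and a threshold of 0.05. Rises, falls and differences are log2 fold changes ± SE. HY5 stood at 11.2 to 14.2 CPM in hy5 roots and at 17.5 to 26.7 CPM in phyAB roots, against 45.4 to 54.2 CPM in Col-0 roots, and PHYA stood at 14.5 to 22.0 CPM in phyAB roots, against 134 to 186 CPM in Col-0 roots. PHYB stood at 31.5 to 43.2 CPM in phyAB roots, against 86.8 to 119 CPM in Col-0 roots. In shoots HY5 overlapped, at 5.31 to 8.07 CPM in hy5 against 5.78 to 9.91 CPM in Col-0, so that in shoots it did not check the hy5 label, while PHYA stood at 17.0 to 45.3 CPM in phyAB against 67.3 to 148 CPM in Col-0. PHYB was only just lower there, at 57.5 to 64.7 CPM in phyAB shoots against 65.2 to 86.8 CPM in Col-0 shoots. Both phyAB root libraries numbered 3 carry a source name that says shoot, whereas their titles say root. Root markers, 12 genes in all, summed to 6634 CPM (27 °C) and 5690 CPM (21 °C) in them, against at most 4569 CPM in any shoot library, and 12 photosynthesis markers summed to 177 and 96.6 CPM, against at least 90665 CPM in any shoot library. They were used as roots, and without both of them 32 of the 42 calls for members that involve phyAB roots still passed; the other 10 are given where they fall. The 3 shoot libraries numbered 3 at 27 °C had 27.8% to 34.6% of their reads at more than 1 place in the genome, against 8.29% to 16.5% in the other shoot libraries and at most 10.4% in root libraries, and without them 63 of the 71 calls that involve shoots at 27 °C still passed. Seed storage and oil body transcripts, 12 genes, summed to 272 to 1539.7 CPM (27 °C) and 431 to 2962 CPM (21 °C) in phyAB shoots, against at most 9.70 CPM in any other shoot library, and their part in the phyAB shoot results was not tested.

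Set per length of exon (RPKM), the member with the highest level in Col-0 shoots was SWEET11, at 125 ± 3.89 RPKM at 27 °C and 94.3 ± 7.50 RPKM at 21 °C (mean ± SD, n = 3). In Col-0 shoots at 27 °C it was followed by STP1 at 63.7 ± 16.8 RPKM, SUC2 at 49.2 ± 0.862 RPKM and SWEET12 at 38.6 ± 2.90 RPKM, with SWEET13 lowest at 0.217 ± 0.232 RPKM. The STP1 and SUC2 levels differed by less than the SD of STP1, whereas SWEET11 stood well above both. In Col-0 roots at 27 °C the order opened with STP1 at 46.5 ± 9.70 RPKM, SUC1 at 35.0 ± 2.55 RPKM and SWEET17 at 24.8 ± 2.81 RPKM, and SWEET13 was lowest at 2.54 ± 1.03 RPKM. In Col-0 roots at 21 °C, SUC1 led at 35.7 ± 2.69 RPKM, and SWEET11 at 1.69 ± 0.694 RPKM and SWEET12 at 1.49 ± 1.25 RPKM were the lowest and did not differ from each other beyond their SDs. Over the 12 group means on a CPM scale shared by both organs, the highest mean was 126.8 times the lowest for SWEET11, 45.6 times for SWEET12, 27.8 times for SWEET13 and 19.3 times for SUC2, but 1.43 times for SWEET17.

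**Figure D1:**
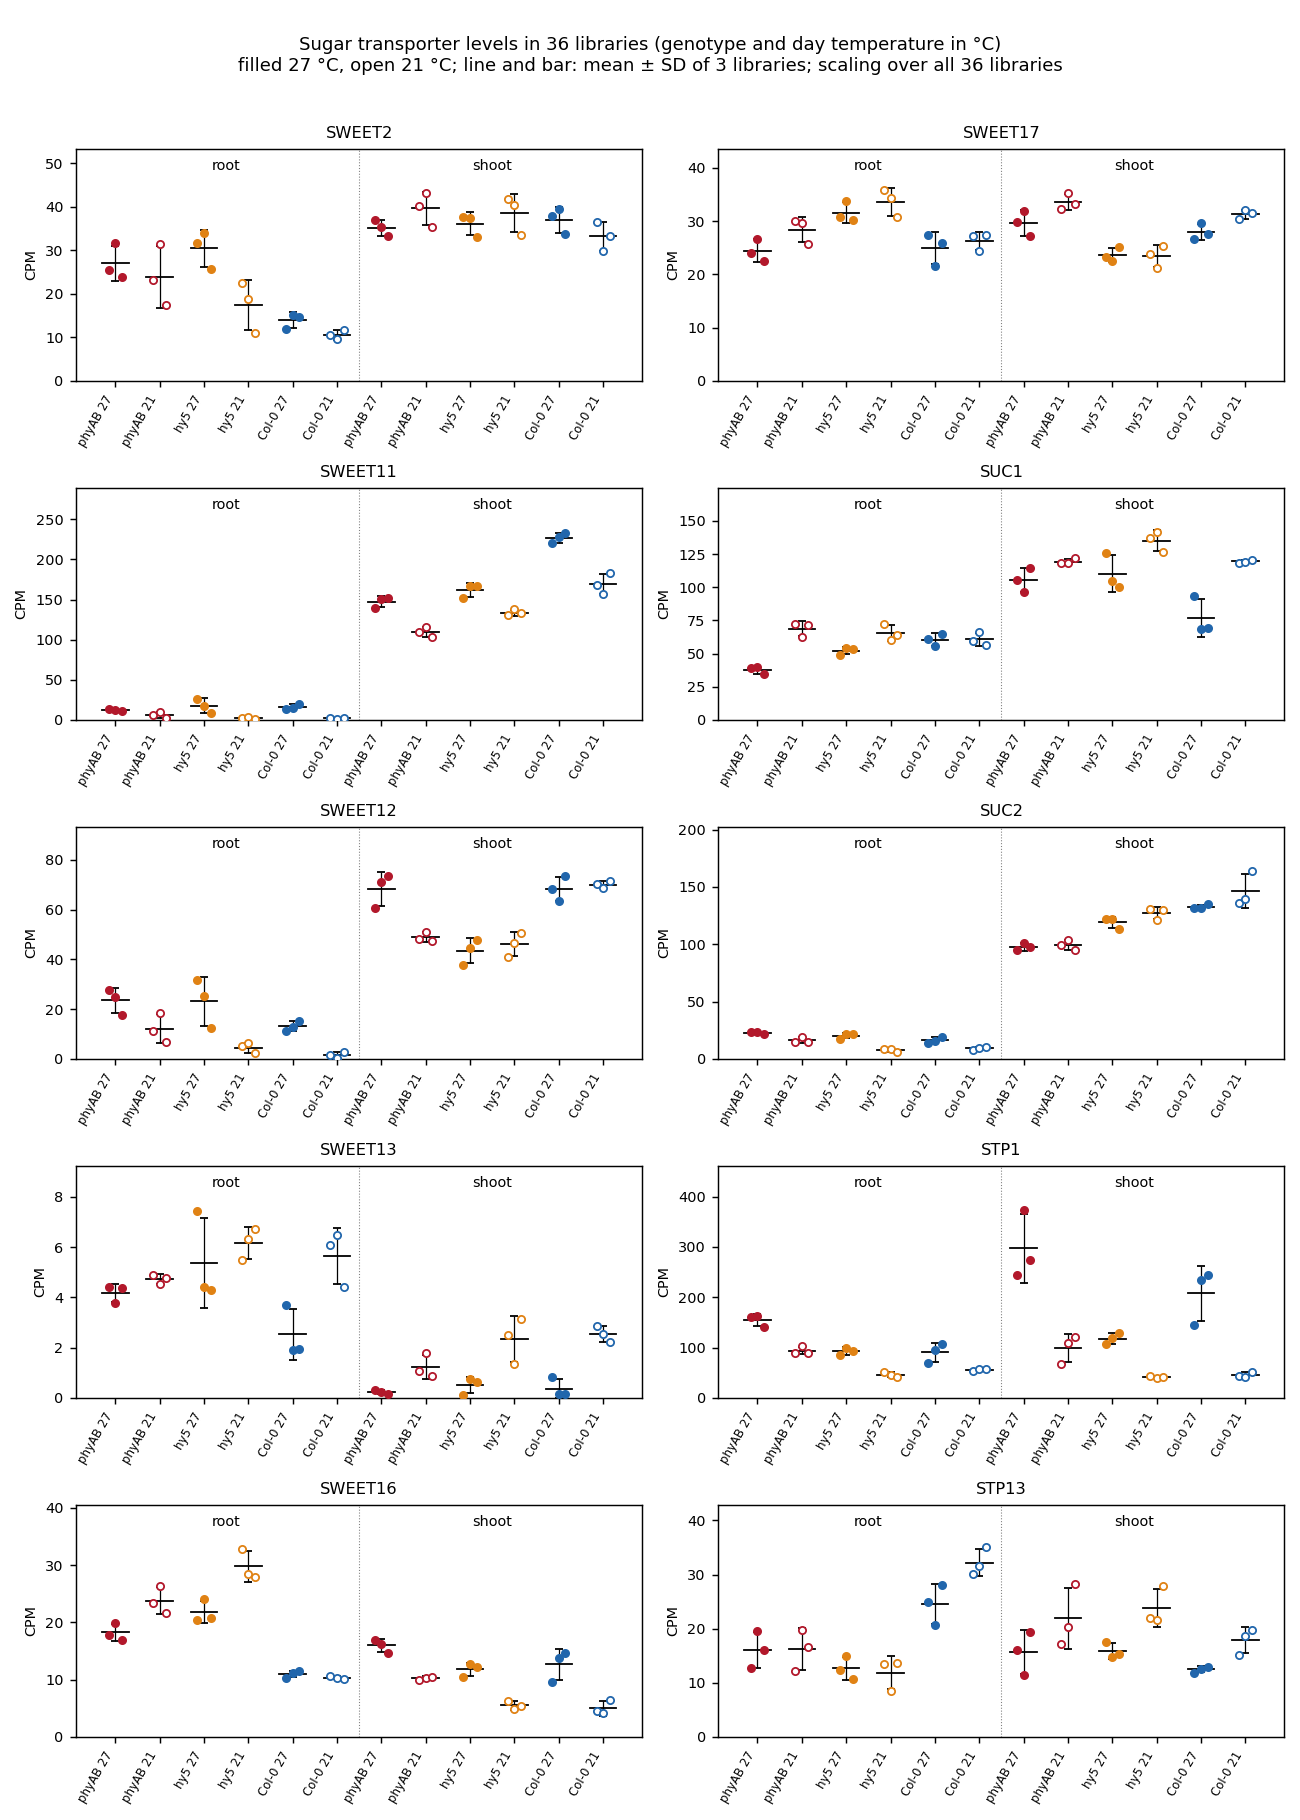
Level of each of the 10 transporters in every library, in CPM on the scale shared by both organs, with an axis from 0 for each gene; points are libraries of phyAB, hy5 and Col-0 (filled at 27 °C, open at 21 °C), and lines and bars are group means ± SD (n = 3). SWEET11 and SWEET12 lie lowest in Col-0 roots at 21 °C, SWEET13 is the only member below 1 CPM in shoots, and SWEET17 lies within a narrow band throughout.

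Several transporters changed with temperature in roots of each genotype. In Col-0 roots 4 members rose (SWEET11, SWEET12, SUC2 and STP1) and 1 fell (SWEET13), where 21.7% and 21.8% of all genes tested rose and fell. In hy5 roots 5 rose (SWEET11, SWEET12, SUC2, STP1 and SWEET2) and 2 fell (SWEET16 and SUC1), where 25.7% and 23.9% of all genes did. In phyAB roots 2 rose (SUC2 and STP1) and 3 fell (SWEET16, SWEET17 and SUC1), where 19.2% and 19.2% of all genes did. The members' median log2 fold change was 0.21, 0.42 and 0.05 in Col-0, hy5 and phyAB roots, beside -0.002, 0.02 and 0.01 over all genes tested. In such bulk samples fewer cells of a type and less RNA per cell cannot be told apart.

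**Figure D2:**
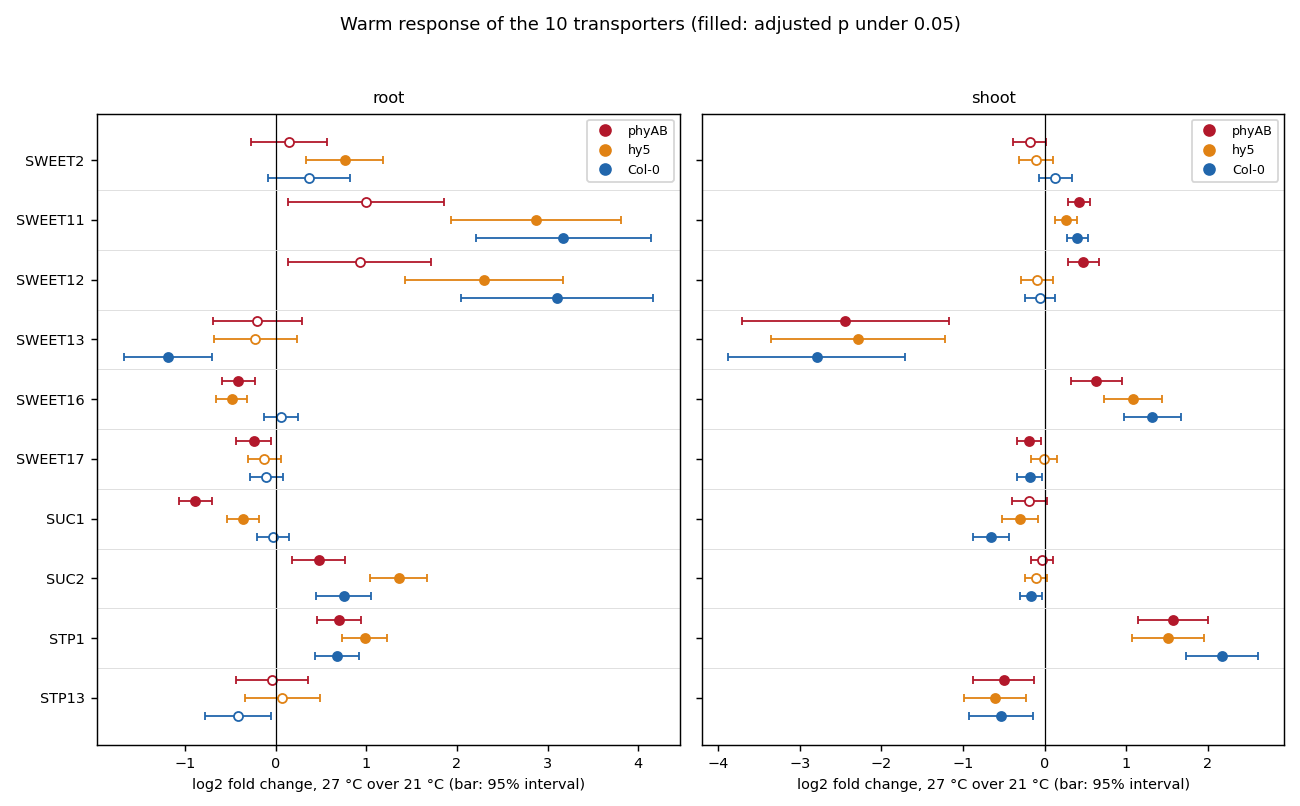
Log2 fold change of each transporter at 27 °C over 21 °C in roots and shoots of phyAB, hy5 and Col-0, with 95% confidence intervals; filled points passed the adjusted threshold of 0.05. SWEET11 and SWEET12 reached 3.18 and 3.11 in Col-0 roots, whereas STP1 and SWEET16 had their highest values in shoots and SWEET13 its lowest there.

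The sucrose exporters SWEET11 and SWEET12 had the largest changes of the 10 members in roots. SWEET11 lies at chr3:18052466-18054832 and SWEET12 at chr5:7971647-7973995, both on the minus strand of TAIR10.1, the RefSeq build used for all coordinates here. The 300 bases before each start are shown because these 2 genes had the largest root values, and none of the motifs searched was in both windows. The motifs were the G-box CACGTG, the ACGT core that it contains, the heat element GAANNTTC and GATAAG, each on both strands. Capitals mark the ACGT core in SWEET11 and the heat element in SWEET12, which begins 49 bases before the start and which 1 of the 10 members and 11.5% of 27443 promoters of the same length hold.
SWEET11, chr3:18054833-18055132, minus strand: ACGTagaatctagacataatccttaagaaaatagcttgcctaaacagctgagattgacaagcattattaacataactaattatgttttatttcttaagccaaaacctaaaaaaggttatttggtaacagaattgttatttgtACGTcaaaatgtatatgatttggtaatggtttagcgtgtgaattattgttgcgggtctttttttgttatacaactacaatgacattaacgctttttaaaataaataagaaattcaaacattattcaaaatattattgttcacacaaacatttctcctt
SWEET12, chr5:7973996-7974295, minus strand: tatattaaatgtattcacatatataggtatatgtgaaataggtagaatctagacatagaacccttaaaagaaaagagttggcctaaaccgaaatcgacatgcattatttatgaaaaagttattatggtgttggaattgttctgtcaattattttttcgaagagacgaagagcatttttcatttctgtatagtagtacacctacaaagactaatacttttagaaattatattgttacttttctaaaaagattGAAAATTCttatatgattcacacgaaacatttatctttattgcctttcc
A match is a description of these letters and not of binding.

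SWEET11 had 17.3, 19.4 and 25.5 CPM in the 3 Col-0 root libraries at 27 °C, against 2.89, 1.23 and 2.90 CPM at 21 °C. All 3 warm libraries lay above all 3 cooler ones. This was a log2 fold change of 3.18 ± 0.46 (SE; adjusted p = 2.29e-05). In hy5 roots SWEET11 had 34.3, 22.9 and 11.0 CPM at 27 °C, against 3.26, 4.43 and 1.36 CPM at 21 °C. The warm libraries were again all higher, although replicate 3 was the lowest at both temperatures. The log2 fold change was 2.87 ± 0.45 (adjusted p = 3.48e-05). In phyAB roots SWEET11 had 17.6, 15.2 and 13.7 CPM at 27 °C, against 7.31, 12.8 and 2.91 CPM at 21 °C. The groups did not overlap, but replicate 2 at 21 °C came close to the warm libraries, and a log2 fold change of 0.996 ± 0.41 did not pass (adjusted p = 0.0623). Without that library it passed (1.58, adjusted p = 0.0124), as it did with no filter on low counts (0.998, adjusted p = 0.0409) and in 1 fit of all 36 libraries (1.01, adjusted p = 0.0139).

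SWEET12 had 14.3, 16.5 and 19.3 CPM in Col-0 roots at 27 °C, against 2.18, 0.254 and 3.60 CPM at 21 °C. Replicate 2 at 21 °C held almost none and every warm library exceeded every cooler one. This was a log2 fold change of 3.11 ± 0.50 (adjusted p = 7.53e-05). Leaving out replicate 3 of Col-0 roots at 21 °C, the highest of the cooler libraries, moved it to 3.86, adjusted p = 8.85e-05. In hy5 roots SWEET12 had 41.0, 32.8 and 16.5 CPM at 27 °C, against 6.67, 8.27 and 3.04 CPM at 21 °C, again without overlap and with a log2 fold change of 2.30 ± 0.42 (adjusted p = 0.000166). In phyAB roots it had 35.8, 32.1 and 23.3 CPM at 27 °C, against 14.6, 23.8 and 9.26 CPM at 21 °C. There replicate 2 at 21 °C lay above replicate 3 at 27 °C, and the log2 fold change of 0.93 ± 0.38 did not pass (adjusted p = 0.0600). It passed without replicate 2 at 21 °C (1.34, adjusted p = 0.0193), with no filter on low counts (0.93, adjusted p = 0.0387) and in 1 fit of all 36 libraries (0.95, adjusted p = 0.0122).

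SUC2, the companion cell loader, had 17.9, 19.6 and 24.4 CPM in Col-0 roots at 27 °C, against 10.5, 12.2 and 14.0 CPM at 21 °C. No library overlapped between temperatures. The log2 fold change was 0.75 ± 0.14 (adjusted p = 0.000361). In hy5 roots it had 22.6, 27.6 and 28.5 CPM at 27 °C, against 11.5, 11.0 and 7.88 CPM at 21 °C. Its log2 fold change was 1.36 ± 0.15 with no overlap (adjusted p = 6.75e-07). In phyAB roots it had 30.6, 29.9 and 28.0 CPM at 27 °C, against 19.5, 24.7 and 19.4 CPM at 21 °C, and rose by 0.48 ± 0.14 (adjusted p = 0.0113). This last call was lost without both phyAB root libraries numbered 3 (0.45, adjusted p = 0.0603).

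Phloem and photosynthesis markers were measured beside these genes. The 7 phloem markers summed to 125 to 141 CPM in Col-0 roots at 27 °C, against 95.5 to 124 CPM at 21 °C, to 121 to 124 against 77.8 to 89.8 CPM in hy5 roots, and to 115 to 116 against 87.5 to 99.9 CPM in phyAB roots. Of the 7, 4 rose and 1 fell in Col-0 roots, where 21.7% and 21.8% of all genes tested did. In hy5 roots 4 of the 7 rose and in phyAB roots 2 did, where 25.7% and 19.2% of all genes rose. Photosynthesis markers, 12 genes, summed to 561 to 695 CPM in Col-0 roots at 27 °C, against 246 to 306 CPM at 21 °C. In Col-0, hy5 and phyAB roots 10, 8 and 8 of these 12 genes rose, beside 21.7%, 25.7% and 19.2% of all genes. On the shared scale these markers in roots amounted to 0.443% of their shoot level at 27 °C and 0.230% at 21 °C in Col-0. SWEET11 in roots amounted to 7.14% of its shoot level at 27 °C and 1.06% at 21 °C in Col-0, SWEET12 to 19.1% and 2.20%, and SUC2 to 12.2% and 6.42%. These are shares of group means. The phloem markers summed to a mean of 135 CPM in Col-0 roots and 501 CPM in Col-0 shoots at 27 °C on that scale. At 21 °C these means were 109 and 442 CPM. The part of either marker set in the transporter values was not tested.

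**Figure D3:**
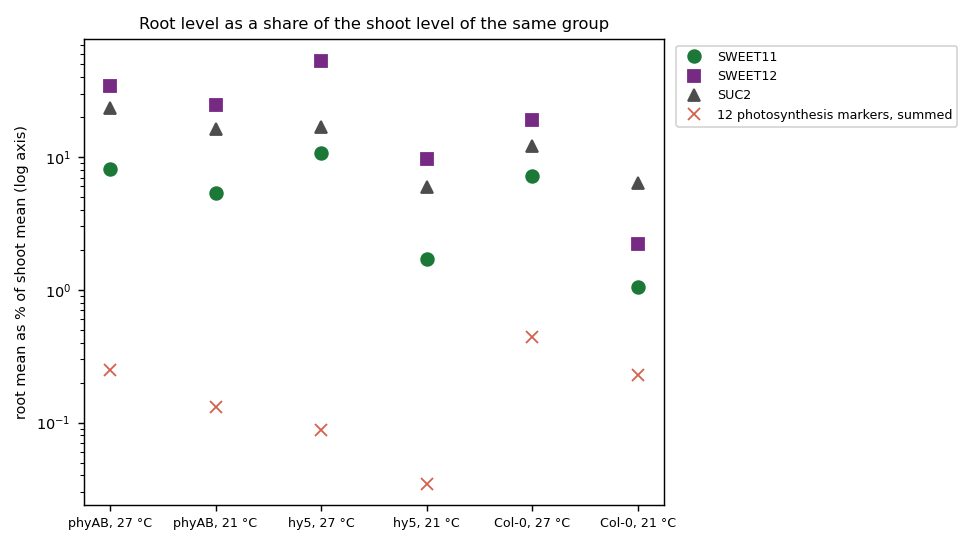
Mean root level as a percentage of the mean shoot level on the shared CPM scale, on a logarithmic axis, for SWEET11, SWEET12, SUC2 and the sum of 12 photosynthesis markers, in phyAB, hy5 and Col-0 at 27 °C and 21 °C. The photosynthesis markers lie between 0.0347% and 0.443%, SWEET11 between 1.06% and 10.8%, SWEET12 between 2.20% and 53.3%, and SUC2 between 5.98% and 23.3%.

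SUC1 and SUC2 are the members whose upstream windows hold the G-box CACGTG, a motif bound by bZIP and bHLH factors, and their windows are shown for that reason. SUC1 lies at chr1:27054030-27056464 on the plus strand and SUC2 at chr1:8030587-8033156 on the minus strand. Capitals mark the G-box, which begins 12 bases before the start of SUC1 and 42 bases before that of SUC2; 2 of the 10 members and 7.09% of 27443 promoters hold it. Capitals also mark any further ACGT core.
SUC1, chr1:27053730-27054029, plus strand: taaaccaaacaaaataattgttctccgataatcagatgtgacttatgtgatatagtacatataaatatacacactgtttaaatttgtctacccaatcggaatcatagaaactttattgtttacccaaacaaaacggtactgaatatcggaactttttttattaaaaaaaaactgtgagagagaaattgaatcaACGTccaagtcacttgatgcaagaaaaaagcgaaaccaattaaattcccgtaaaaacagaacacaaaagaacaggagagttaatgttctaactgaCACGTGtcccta
SUC2, chr1:8033157-8033456, minus strand: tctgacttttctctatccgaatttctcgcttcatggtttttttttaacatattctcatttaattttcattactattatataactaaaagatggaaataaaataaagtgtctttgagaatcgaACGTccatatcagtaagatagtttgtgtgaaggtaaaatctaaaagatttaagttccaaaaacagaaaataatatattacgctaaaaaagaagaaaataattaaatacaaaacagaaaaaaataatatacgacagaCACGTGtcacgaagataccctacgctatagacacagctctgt
The shorter ACGT core was in 7 of the 10 windows and in 49% of all promoters, and GATAAG was in 0 of 10 and in 14.5% of all.

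SUC1 fell with warmth in phyAB and hy5 roots, and its change did not pass in Col-0 roots. It had 50.8, 51.4 and 45.1 CPM in phyAB roots at 27 °C, against 96.1, 80.7 and 95.3 CPM at 21 °C. All warm libraries lay far below the cooler ones, and SUC1 fell, with a log2 fold change of -0.88 ± 0.09 (adjusted p = 6.87e-07). In hy5 roots it had 63.2, 70.0 and 71.0 CPM at 27 °C, against 95.8, 80.3 and 85.8 CPM at 21 °C. That was a change of -0.36 ± 0.09 without overlap (adjusted p = 0.00206). Col-0 roots had 78.0, 71.5 and 82.7 CPM at 27 °C, against 77.5, 85.5 and 73.9 CPM at 21 °C. These overlapped. This was a log2 fold change of -0.03 ± 0.09 and a 95% interval of -0.21 to 0.15 (adjusted p = 0.812). The phyAB response passed as different from that of Col-0 (-0.85, adjusted p = 0.00541), and the hy5 response did not. That phyAB call was lost without both phyAB root libraries numbered 3 (-0.76, adjusted p = 0.0511).

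STP1, a major importer of monosaccharides in seedlings, rose in roots of all 3 genotypes. It lies at chr1:3777236-3780823 on the plus strand and overlaps AT1G11270 on the other strand, and since the strand setting of the counting is not given, reads of the overlap cannot be assigned with certainty. In Col-0 roots STP1 had 88.8, 122 and 136 CPM at 27 °C, against 68.9, 73.5 and 74.1 CPM at 21 °C, with no overlap and a log2 fold change of 0.68 ± 0.12 (adjusted p = 0.000129). In hy5 roots it had 109.6, 129.7 and 123 CPM at 27 °C, against 66.9, 61.6 and 54.3 CPM at 21 °C, so each warm library was well above each cooler one. The log2 fold change was 0.98 ± 0.12 (adjusted p = 1.84e-06). In phyAB roots it had 209.7, 207 and 185 CPM at 27 °C, the highest root levels of this gene, against 119, 133 and 119 CPM at 21 °C. There it rose by 0.70 ± 0.11 (adjusted p = 0.000108).

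STP13, at chr5:9243398-9247540 on the minus strand, had 31.8, 26.5 and 35.8 CPM in Col-0 roots at 27 °C, against 39.2, 40.7 and 45.9 CPM at 21 °C. Every warm library was below every cooler one, but the log2 fold change of -0.42 ± 0.17 did not pass (adjusted p = 0.0582). It passed without replicate 3 of Col-0 roots at 27 °C (-0.52, adjusted p = 0.0439) and with no filter on low counts (-0.42, adjusted p = 0.0413). In hy5 and phyAB roots the temperatures overlapped, with log2 fold changes of 0.07 ± 0.20 (adjusted p = 0.780) and -0.04 ± 0.19 (adjusted p = 0.891).

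SWEET13, at chr5:20665068-20667312 on the minus strand, fell in Col-0 roots. It had 4.73, 2.46 and 2.47 CPM there at 27 °C, against 7.95, 8.39 and 5.76 CPM at 21 °C. The groups did not overlap. The log2 fold change was -1.19 ± 0.23 (adjusted p = 0.000428). In hy5 roots it had 9.63, 5.70 and 5.69 CPM at 27 °C, against 7.27, 8.42 and 8.98 CPM at 21 °C, with overlap and a log2 fold change of -0.22 ± 0.22 (adjusted p = 0.418). In phyAB roots the log2 fold change was -0.20 ± 0.23 (adjusted p = 0.536).

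Among the vacuolar carriers, SWEET16 (chr3:5684317-5686544, minus strand) had 26.5, 31.2 and 27.6 CPM in hy5 roots at 27 °C, against 43.6, 38.1 and 37.4 CPM at 21 °C. The warm libraries were all lower, and it fell by 0.48 ± 0.08 on the log2 scale (adjusted p = 8.18e-05). In phyAB roots it had 23.2, 25.4 and 22.2 CPM at 27 °C, against 31.0, 34.1 and 28.9 CPM at 21 °C, and fell by 0.41 ± 0.08 (adjusted p = 0.000901). Col-0 roots, at 13.1, 14.4 and 14.6 CPM at 27 °C and 13.9, 13.3 and 13.2 CPM at 21 °C, overlapped, with a 95% interval of -0.13 to 0.25 (adjusted p = 0.630). SWEET2 (chr3:4957334-4959704, minus strand) rose in hy5 roots, to 40.9, 44.2 and 34.2 CPM at 27 °C, against 30.0, 25.0 and 14.9 CPM at 21 °C. Its log2 fold change was 0.76 ± 0.20 without overlap (adjusted p = 0.00422). SWEET17 (chr4:9030486-9033648, minus strand) fell in phyAB roots, to 31.2, 34.2 and 29.4 CPM at 27 °C, against 39.6, 38.3 and 34.3 CPM at 21 °C. This change of -0.24 ± 0.09 (adjusted p = 0.0398) is the smallest called in roots, and it was lost without any 1 of replicates 1 and 2 of phyAB roots at 21 °C and replicates 1 and 3 of phyAB roots at 27 °C (-0.23 to -0.19, adjusted p 0.0925 to 0.144). It also failed without both phyAB root libraries numbered 3 (-0.25, adjusted p = 0.0807).

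In shoots the members split in another way. STP1 and SWEET16 rose and SWEET13 and STP13 fell in all 3 genotypes, and SWEET11 rose in all 3, in Col-0 and hy5 by less than in roots. In Col-0 shoots 3 members rose and 5 fell, where 22.5% and 23.2% of all genes tested did. In hy5 shoots 3 rose and 3 fell, where 23.1% and 22.5% of all genes did. In phyAB shoots 4 rose and 3 fell, where 21.3% and 22.1% of all genes did. The members' median log2 fold change was -0.11, -0.10 and -0.11 in Col-0, hy5 and phyAB shoots, beside 0.01, 0.01 and -0.003 over all genes tested.

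STP1 had 110.2, 178 and 186 CPM in Col-0 shoots at 27 °C, against 33.6, 32.0 and 39.9 CPM at 21 °C. Replicate 1 was the lowest warm library and still lay far above the cooler ones. The log2 fold change was 2.17 ± 0.21 (adjusted p = 2.8e-07). In hy5 shoots it had 81.0, 90.0 and 98.5 CPM at 27 °C, against 33.5, 29.9 and 31.5 CPM at 21 °C. Its log2 fold change was 1.50 ± 0.21 (adjusted p = 1.45e-05). In phyAB shoots it had 187, 284 and 209 CPM at 27 °C, against 52.5, 84.1 and 92.6 CPM at 21 °C. No warm library overlapped a cooler one, although the replicates spread more than in hy5. The log2 fold change was 1.57 ± 0.20 (adjusted p = 7.1e-06).

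SWEET16 had 7.29, 10.4 and 11.2 CPM in Col-0 shoots at 27 °C, against 3.43, 3.13 and 4.97 CPM at 21 °C. That was a rise of 1.31 ± 0.17 with no overlap (adjusted p = 5.1e-06). In hy5 shoots the values were 8.01, 9.67 and 9.35 CPM at 27 °C, against 4.85, 3.73 and 4.09 CPM at 21 °C. That was a rise of 1.08 ± 0.17 (adjusted p = 4.42e-05). In phyAB shoots they were 13.0, 12.4 and 11.2 CPM at 27 °C, against 7.65, 7.93 and 8.06 CPM at 21 °C. That was a rise of 0.63 ± 0.15 (adjusted p = 0.00231). SWEET16 therefore rose in shoots of every genotype, whereas it fell in hy5 and phyAB roots.

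SWEET13 was the rarest member in shoots, and its values rest on few reads. Col-0 shoots held 12, 2 and 2 reads at 27 °C, against 52, 36 and 38 at 21 °C, which is 0.616, 0.102 and 0.109 CPM against 2.20, 1.95 and 1.72 CPM. Every warm library was below every cooler one. This was a log2 fold change of -2.79 ± 0.52 (adjusted p = 0.000256), and without replicate 1 at 27 °C, the highest of the warm ones, it moved to -4.14, adjusted p = 4.01e-05. In hy5 shoots SWEET13 had 0.0983, 0.559 and 0.479 CPM at 27 °C, against 1.91, 1.04 and 2.42 CPM at 21 °C. That was a change of -2.29 ± 0.50 (adjusted p = 0.00120). In phyAB shoots it had 0.229, 0.172 and 0.106 CPM at 27 °C, against 0.813, 1.37 and 0.671 CPM at 21 °C. That was a change of -2.44 ± 0.60 (adjusted p = 0.00314). Neither genotype showed an overlap between temperatures.

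SWEET11, the most abundant member of Col-0 shoots per length, had 167, 173 and 178 CPM there at 27 °C, against 129.8, 121 and 142 CPM at 21 °C. All 3 warm libraries were higher. This was a log2 fold change of 0.40 ± 0.06 (adjusted p = 5.91e-05). In hy5 shoots it rose by 0.26 ± 0.06 (adjusted p = 0.00264) and in phyAB shoots by 0.42 ± 0.06 (adjusted p = 4.63e-05), also without overlap. SWEET12 had 46.5, 53.9 and 56.3 CPM in phyAB shoots at 27 °C, against 37.2, 39.4 and 36.2 CPM at 21 °C, and rose by 0.47 ± 0.09 (adjusted p = 0.000326). In Col-0 and hy5 shoots it overlapped between temperatures, with 95% intervals of -0.25 to 0.13 and -0.29 to 0.10. In 1 fit of all 36 libraries, where roots and shoots share a dispersion per gene, none of these 4 rises passed: SWEET11 had adjusted p values of 0.169, 0.399 and 0.172 in Col-0, hy5 and phyAB shoots, and SWEET12 had 0.147 in phyAB shoots.

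SUC1 had 70.7, 52.0 and 52.6 CPM in Col-0 shoots at 27 °C, against 91.7, 91.6 and 93.7 CPM at 21 °C. All warm libraries were lower. This was a log2 fold change of -0.66 ± 0.10 (adjusted p = 5.26e-05). In hy5 shoots it had 96.3, 79.6 and 76.5 CPM at 27 °C, against 105, 109 and 97.1 CPM at 21 °C. That was a change of -0.30 ± 0.10 (adjusted p = 0.0218). This call was lost without any 1 of replicates 1 and 2 of hy5 shoots at 21 °C and replicates 2 and 3 of hy5 shoots at 27 °C (-0.29 to -0.24, adjusted p 0.0549 to 0.102). The loss recurred without the 3 shoot libraries numbered 3 at 27 °C (-0.24, adjusted p = 0.0839). In phyAB shoots the log2 fold change of -0.19 ± 0.10 did not pass (adjusted p = 0.143).

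SUC2 had 99.5, 100.2 and 103 CPM in Col-0 shoots at 27 °C, against 105, 107 and 127 CPM at 21 °C. The warm libraries were lower by little, and the change of -0.17 ± 0.06 (adjusted p = 0.0400) was lost without any 1 of replicates 1, 2 and 3 of Col-0 shoots at 27 °C and replicate 3 of Col-0 shoots at 21 °C (-0.18 to -0.08, adjusted p 0.0607 to 0.277). It was likewise lost with no filter on low counts (-0.16, adjusted p = 0.0581), without the 3 shoot libraries numbered 3 at 27 °C (-0.18, adjusted p = 0.0699) and in 1 fit of all 36 libraries (-0.14, adjusted p = 0.270). In hy5 and phyAB shoots SUC2 did not pass, with 95% intervals of -0.24 to 0.03 and -0.17 to 0.10. The phloem markers summed to 497 to 504 CPM in Col-0 shoots at 27 °C, against 422 to 456 CPM at 21 °C.

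STP13 had 8.98, 9.59 and 9.85 CPM in Col-0 shoots at 27 °C, against 11.7, 14.4 and 15.3 CPM at 21 °C. That was a change of -0.54 ± 0.19 with no overlap (adjusted p = 0.0257). In hy5 shoots it had 13.3, 11.2 and 11.7 CPM at 27 °C, against 16.9, 16.6 and 21.4 CPM at 21 °C, also without overlap, and fell by 0.61 ± 0.18 (adjusted p = 0.0104). In phyAB shoots it had 12.4, 8.70 and 14.9 CPM at 27 °C, against 13.2, 15.6 and 21.6 CPM at 21 °C, with overlap, and fell by 0.50 ± 0.18 (adjusted p = 0.0297). In Col-0 shoots the call was lost without any 1 of replicates 1 and 2 of Col-0 shoots at 27 °C and replicates 2 and 3 of Col-0 shoots at 21 °C (-0.55 to -0.45, adjusted p 0.0581 to 0.0932). It failed again in 1 fit of all 36 libraries (-0.51, adjusted p = 0.0549). The hy5 call was lost without replicate 3 of hy5 shoots at 21 °C (-0.47, adjusted p = 0.0654). The phyAB call was lost without any 1 of replicates 1 and 2 of phyAB shoots at 27 °C and replicate 3 of phyAB shoots at 21 °C (-0.53 to -0.28, adjusted p 0.0524 to 0.212). It was also lost in 1 fit of all 36 libraries (-0.49, adjusted p = 0.0562).

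SWEET17 had 20.2, 22.5 and 21.1 CPM in Col-0 shoots at 27 °C, against 23.5, 24.6 and 24.4 CPM at 21 °C. It fell slightly, with a log2 fold change of -0.18 ± 0.07 (adjusted p = 0.0462), and in phyAB shoots it fell by 0.19 ± 0.07 (adjusted p = 0.0373). The Col-0 call was lost without any 1 of replicates 1, 2 and 3 of Col-0 shoots at 21 °C and replicates 1 and 3 of Col-0 shoots at 27 °C (-0.20 to -0.15, adjusted p 0.0565 to 0.159). It also failed with no filter on low counts (-0.18, adjusted p = 0.0671), with DESeq2 (-0.19, adjusted p = 0.0809), without the 3 shoot libraries numbered 3 at 27 °C (-0.18, adjusted p = 0.0859) and in 1 fit of all 36 libraries (-0.16, adjusted p = 0.146). The phyAB call was lost without any 1 of replicates 1 and 3 of phyAB shoots at 27 °C and replicates 2 and 3 of phyAB shoots at 21 °C (-0.20 to -0.13, adjusted p 0.0588 to 0.171). The loss recurred with no filter on low counts (-0.19, adjusted p = 0.0516), with DESeq2 (-0.19, adjusted p = 0.0679), without the 3 shoot libraries numbered 3 at 27 °C (-0.13, adjusted p = 0.177) and in 1 fit of all 36 libraries (-0.18, adjusted p = 0.0986). SWEET2 passed in shoots of no genotype, with log2 fold changes of 0.13, -0.10 and -0.18 in Col-0, hy5 and phyAB.

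Set against Col-0, both mutants had more SWEET2 and SWEET16 and less STP13 transcript in roots at both temperatures. In hy5 roots 4 members were higher than in Col-0 and 1 was lower at 27 °C, where 16% and 17.4% of all genes tested were. At 21 °C 4 were higher and 1 was lower in hy5 roots, where 16.7% and 18.4% of all genes were. In phyAB roots 5 were higher and 2 were lower than in Col-0 at 27 °C, where 14.6% and 16.6% of all genes were. At 21 °C 6 were higher and 1 was lower in phyAB roots, where 17.2% and 17.9% of all genes were. The comparisons of both mutants share the Col-0 libraries.

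**Figure D4:**
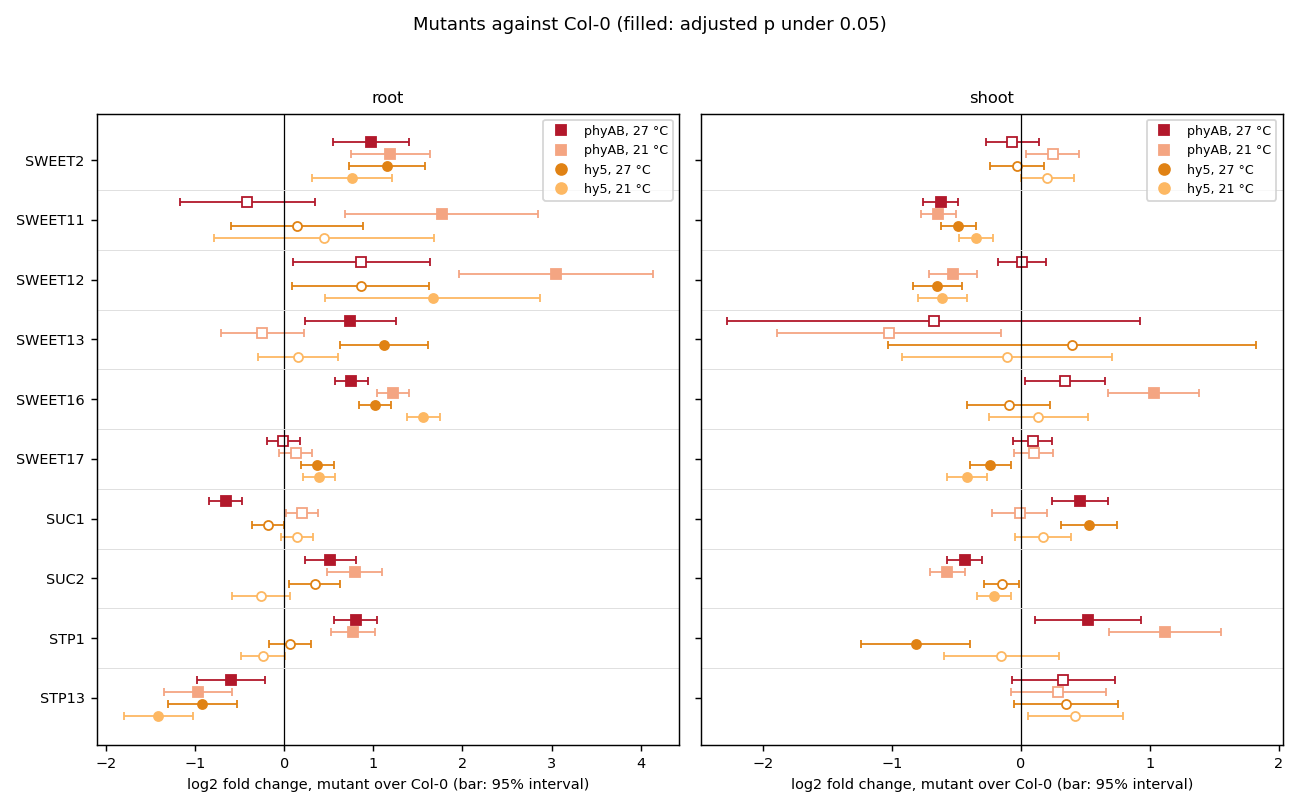
Log2 fold change of each transporter in phyAB and in hy5 over Col-0, in roots and shoots at 27 °C and 21 °C, with 95% confidence intervals; filled points passed the adjusted threshold of 0.05. SWEET12 in phyAB roots at 21 °C is the highest value (3.05) and STP13 in hy5 roots at 21 °C the lowest (-1.41).

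SWEET16 in hy5 roots exceeded Col-0 roots by 1.02 ± 0.09 at 27 °C (adjusted p = 3.27e-08) and 1.56 ± 0.09 at 21 °C (adjusted p = 7.35e-11) on the log2 scale, and in phyAB roots by 0.75 ± 0.09 (adjusted p = 2.24e-06) and 1.22 ± 0.09 (adjusted p = 5.53e-09). The library values given above did not overlap between either mutant and Col-0. SWEET2 had 33.1, 40.6 and 31.3 CPM in phyAB roots (27 °C) and 30.5, 40.8 and 23.2 CPM (21 °C), against 15.2, 19.6 and 18.9 CPM in Col-0 roots (27 °C) and 13.9, 12.3 and 15.5 CPM (21 °C). The phyAB libraries were all higher, by 0.97 ± 0.20 at 27 °C (adjusted p = 0.00119) and 1.19 ± 0.21 at 21 °C (adjusted p = 0.000227). In hy5 roots SWEET2 was higher than in Col-0 by 1.16 ± 0.20 at 27 °C (adjusted p = 0.000204) and 0.76 ± 0.22 at 21 °C (adjusted p = 0.00967). At 21 °C replicate 3 of hy5 lay below replicate 3 of Col-0, and the call was lost without replicate 1 of hy5 roots at 21 °C (0.54, adjusted p = 0.0750).

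STP13 libraries of hy5 roots held 16.0, 19.4 and 14.2 CPM (27 °C) and 17.9, 11.3 and 18.3 CPM (21 °C). Those of phyAB roots held 16.6, 25.0 and 20.9 CPM (27 °C) and 16.2, 25.7 and 22.2 CPM (21 °C). All 12 of these libraries lay below the Col-0 libraries of their temperature. The log2 differences from Col-0 were -0.92 ± 0.18 at 27 °C (adjusted p = 0.000747) and -1.41 ± 0.19 at 21 °C (adjusted p = 7.32e-06) for hy5, and -0.59 ± 0.18 (adjusted p = 0.0178) and -0.97 ± 0.18 (adjusted p = 0.000345) for phyAB. The phyAB difference at 27 °C was lost without either replicate 3 of Col-0 roots at 27 °C or replicate 1 of phyAB roots at 27 °C (-0.49 to -0.45, adjusted p 0.0849 to 0.105). It was likewise lost without both phyAB root libraries numbered 3 (-0.60, adjusted p = 0.0533).

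STP1, by contrast, was higher in phyAB roots than in Col-0 roots, by 0.80 ± 0.11 at 27 °C (adjusted p = 2.52e-05) and 0.77 ± 0.12 at 21 °C (adjusted p = 3.77e-05), with no overlap of libraries at either temperature. In hy5 roots it did not pass, with 95% intervals of -0.18 to 0.30 at 27 °C and -0.49 to 0.01 at 21 °C. SUC2 was likewise higher in phyAB roots, by 0.52 ± 0.14 at 27 °C (adjusted p = 0.00668) and 0.79 ± 0.15 at 21 °C (adjusted p = 0.000315), without overlap. The hy5 root difference of SUC2 at 27 °C, 0.34 ± 0.14, did not pass (adjusted p = 0.0603), but passed without replicate 3 of Col-0 roots (0.48, adjusted p = 0.0176) or replicate 1 of hy5 roots (0.44, adjusted p = 0.0308) and in 1 fit of all 36 libraries (0.31, adjusted p = 0.0350).

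The exporters SWEET11 and SWEET12 differed between mutant and Col-0 roots at 21 °C. In phyAB roots at 21 °C SWEET12 was higher by 3.05 ± 0.52 (adjusted p = 0.000133) and SWEET11 by 1.77 ± 0.52 (adjusted p = 0.0119). Every phyAB library exceeded every Col-0 library for both genes, for SWEET11 by very little. Leaving out replicate 3 of Col-0 roots at 21 °C moved SWEET12 to 3.80, adjusted p = 0.000135, and the SWEET11 call was lost without either replicate 2 of Col-0 roots at 21 °C or replicate 2 of phyAB roots at 21 °C (1.18 to 1.43, adjusted p 0.0652 to 0.123). In hy5 roots at 21 °C SWEET12 was higher by 1.66 ± 0.58 (adjusted p = 0.0308), with replicate 3 of hy5 below replicate 3 of Col-0, and this call was lost without any 1 of replicates 1 and 2 of Col-0 roots at 21 °C and replicates 1 and 2 of hy5 roots at 21 °C (1.08 to 1.75, adjusted p 0.0606 to 0.138). At 27 °C neither gene passed in roots of either mutant, with log2 differences of 0.14 and 0.86 for SWEET11 and SWEET12 in hy5 and -0.41 and 0.87 in phyAB. In 1 fit of all 36 libraries both SWEET12 values at 27 °C passed (0.83, adjusted p = 0.0250 in hy5, and 0.85, adjusted p = 0.0234 in phyAB), and the hy5 one also passed without replicate 3 of hy5 roots (1.14, adjusted p = 0.0235).

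SWEET13 was higher in hy5 roots at 27 °C by 1.12 ± 0.24 (adjusted p = 0.00111) and in phyAB roots at 27 °C by 0.74 ± 0.24 (adjusted p = 0.0261), with replicate 1 of Col-0 the highest Col-0 library. Without it the phyAB difference moved to 1.13, adjusted p = 0.00148, and the phyAB call was lost without any 1 of replicates 2 and 3 of Col-0 roots at 27 °C and replicates 1 and 3 of phyAB roots at 27 °C (0.58 to 0.71, adjusted p 0.0715 to 0.120). It failed again without both phyAB root libraries numbered 3 (0.71, adjusted p = 0.0814). At 21 °C SWEET13 passed in roots of neither mutant. SUC1 was lower in phyAB roots at 27 °C, with a difference of -0.66 ± 0.09 without overlap (adjusted p = 1.16e-05), while at 21 °C its difference was 0.20 ± 0.09 (adjusted p = 0.0812), which passed without replicate 2 of Col-0 (0.26, adjusted p = 0.0473) or of phyAB (0.28, adjusted p = 0.0196). SWEET17 was higher in hy5 roots by 0.37 ± 0.09 at 27 °C (adjusted p = 0.00280) and 0.39 ± 0.09 at 21 °C (adjusted p = 0.00167), with no overlap.

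In shoots the mutants had less transcript of the exporters SWEET11 and SWEET12 than Col-0, except SWEET12 in phyAB at 27 °C. In hy5 shoots 1 member was higher and 4 were lower at 27 °C, where 6.18% and 6.06% of all genes tested were. At 21 °C 0 were higher and 4 lower, where 8.99% and 8.94% of all genes were. In phyAB shoots 2 were higher and 2 lower at 27 °C, where 18.8% and 23.7% of all genes were. At 21 °C 2 were higher and 3 lower, where 18% and 20.2% were.

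SWEET11 libraries of hy5 shoots held 116, 127 and 128 CPM (27 °C) and 100.4, 106 and 102 CPM (21 °C). Those of phyAB shoots held 107, 114 and 116 CPM (27 °C) and 84.0, 89.0 and 78.9 CPM (21 °C). All 12 libraries lay below the Col-0 libraries of their temperature. The log2 differences from Col-0 were -0.49 ± 0.06 (adjusted p = 8.56e-05) and -0.35 ± 0.06 (adjusted p = 0.00126) in hy5 at 27 °C and 21 °C, and -0.62 ± 0.06 (adjusted p = 5.95e-07) and -0.64 ± 0.06 (adjusted p = 6.94e-07) in phyAB. SWEET12 had 28.9, 33.9 and 36.7 CPM in hy5 shoots (27 °C) and 31.7, 35.8 and 38.8 CPM (21 °C), against 51.6, 48.2 and 56.0 CPM in Col-0 shoots (27 °C) and 54.4, 52.7 and 55.3 CPM (21 °C). No hy5 library reached a Col-0 library, and the log2 differences were -0.65 ± 0.09 (adjusted p = 0.000153) and -0.61 ± 0.09 (adjusted p = 0.000222). In phyAB shoots SWEET12 was lower at 21 °C, with a difference of -0.53 ± 0.09 (adjusted p = 0.000145) and had a difference of 0.01 ± 0.09 at 27 °C (adjusted p = 0.960). In 1 fit of all 36 libraries the hy5 calls were lost for SWEET11 (adjusted p 0.217 at 27 °C and 0.391 at 21 °C) and SWEET12 (0.121 and 0.127), as was the phyAB call of SWEET12 at 21 °C (0.126).

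SUC2 was lower in phyAB shoots, with a difference of -0.44 ± 0.06 at 27 °C (adjusted p = 3.07e-05) and -0.57 ± 0.06 at 21 °C (adjusted p = 2.45e-06). Its phyAB shoot libraries held 72.5, 76.8 and 74.3 CPM (27 °C) and 76.4, 79.6 and 72.8 CPM (21 °C), all below Col-0, whereas in roots the phyAB libraries were all above Col-0. In hy5 shoots SUC2 was lower at 21 °C, with a difference of -0.21 ± 0.06 (adjusted p = 0.0297), and this was lost without any 1 of replicate 3 of Col-0 shoots at 21 °C and replicates 2 and 3 of hy5 shoots at 21 °C (-0.22 to -0.12, adjusted p 0.0564 to 0.160). It was also lost in 1 fit of all 36 libraries (-0.20, adjusted p = 0.188). The phloem markers summed to 348 to 419 CPM in phyAB shoots (27 °C) and 290.3 to 351 CPM (21 °C), and to 388 to 396 and 351 to 363 CPM in hy5 shoots. These were set against 497 to 504 CPM in Col-0 shoots (27 °C) and 422 to 456 CPM (21 °C), and their part in the lower SWEET11, SWEET12 and SUC2 values was not tested.

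STP1 was higher in phyAB shoots than in Col-0 shoots, by 0.52 ± 0.20 at 27 °C (adjusted p = 0.0413) and 1.12 ± 0.21 at 21 °C (adjusted p = 0.000332). No phyAB library overlapped Col-0 at either temperature, although at 27 °C the lowest phyAB library stood barely above the highest Col-0 library, and the call at 27 °C was lost without any 1 of replicate 1 of Col-0 shoots at 27 °C and replicates 2 and 3 of phyAB shoots at 27 °C (0.31 to 0.57, adjusted p 0.0503 to 0.234). It also failed with DESeq2 (0.52, adjusted p = 0.0528). In hy5 shoots STP1 was lower at 27 °C, with a difference of -0.82 ± 0.20 (adjusted p = 0.0124), a call that was lost without any 1 of replicates 2 and 3 of Col-0 shoots at 27 °C and replicate 1 of hy5 shoots at 27 °C (-0.75 to -0.68, adjusted p 0.0558 to 0.0620). The loss recurred without the 3 shoot libraries numbered 3 at 27 °C (-0.75, adjusted p = 0.0829). SUC1 was higher at 27 °C by 0.53 ± 0.10 in hy5 shoots (adjusted p = 0.00299) and by 0.46 ± 0.10 in phyAB shoots (adjusted p = 0.00163), the temperature at which it fell in Col-0. SWEET16 was higher in phyAB shoots at 21 °C by 1.03 ± 0.17 without overlap (adjusted p = 0.000103). At 27 °C its difference of 0.34 ± 0.15 did not pass (adjusted p = 0.0707). It passed without the 3 shoot libraries numbered 3 at 27 °C (0.52, adjusted p = 0.0336), without replicate 3 of Col-0 alone (0.46, adjusted p = 0.0313) and in 1 fit of all 36 libraries (0.34, adjusted p = 0.0342). SWEET17 was lower in hy5 shoots, with a difference of -0.24 ± 0.07 at 27 °C (adjusted p = 0.0453) and -0.42 ± 0.07 at 21 °C (adjusted p = 0.000905), whereas it was higher in hy5 roots. The hy5 shoot call of SWEET17 at 27 °C was lost without any 1 of replicates 2 and 3 of Col-0 shoots at 27 °C and replicates 1 and 2 of hy5 shoots at 27 °C (-0.24 to -0.19, adjusted p 0.0920 to 0.174). It was likewise lost with no filter on low counts (-0.24, adjusted p = 0.0520), with DESeq2 (-0.24, adjusted p = 0.0875), without the 3 shoot libraries numbered 3 at 27 °C (-0.29, adjusted p = 0.0639) and in 1 fit of all 36 libraries (-0.24, adjusted p = 0.0829). SWEET13 did not pass in phyAB shoots at 27 °C, at -0.68 ± 0.76 (adjusted p = 0.507), or at 21 °C, at -1.02 ± 0.41 (adjusted p = 0.0589). The value at 21 °C passed without replicate 2 of phyAB shoots (-1.39, adjusted p = 0.0350) and in 1 fit of all 36 libraries (-1.02, adjusted p = 0.0332).

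The difference between a mutant's warm response and that of Col-0 was tested for each gene. In phyAB roots 1 of the 10 members passed, where 0.0983% of all genes did: SUC1 differed by -0.85 ± 0.12 (adjusted p = 0.00541). It fell in phyAB roots and did not pass in Col-0 roots. The call for the difference was lost without both phyAB root libraries numbered 3 (-0.76, adjusted p = 0.0511). Before adjustment 5 members had a p under 0.05 in phyAB roots, and 5 did in phyAB shoots. In phyAB shoots 1 passed, where 3.51% of all genes did: the SWEET12 response differed by 0.53 ± 0.13 (adjusted p = 0.0252). It was lost without any 1 of replicate 2 of Col-0 shoots at 27 °C, replicates 1 and 3 of phyAB shoots at 21 °C and replicates 2 and 3 of phyAB shoots at 27 °C (0.48 to 0.53, adjusted p 0.0521 to 0.0846). It failed again without the 3 shoot libraries numbered 3 at 27 °C (0.53, adjusted p = 0.0504) and in 1 fit of all 36 libraries (0.52, adjusted p = 0.526). SUC1 differed there by 0.47 and did not pass (adjusted p = 0.0853). It passed with DESeq2 (0.47, adjusted p = 0.0393) and without replicate 1 of Col-0 shoots at 27 °C (0.63, adjusted p = 0.00632). SWEET16, at -0.69 (adjusted p = 0.101), passed in 1 fit of all 36 libraries (-0.70, adjusted p = 0.0467). It also passed without that replicate (-0.85, adjusted p = 0.0219) or replicate 3 at 21 °C (-0.92, adjusted p = 0.0228). In hy5 roots 0 members passed with edgeR, where 0.413% of all genes did; 4 had an unadjusted p under 0.05 and DESeq2 called 1, SWEET16. In hy5 shoots 0 passed, where 0.00498% of all genes did; 2 had an unadjusted p under 0.05 and DESeq2 called 0, with no adjusted p for SWEET13.

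SWEET16 was nearest the threshold in hy5 roots, where its response differed from that in Col-0 by -0.54 ± 0.12 (adjusted p = 0.0558). It passed with median-of-ratios size factors (-0.56, adjusted p = 0.0497), with no filter on low counts (-0.55, adjusted p = 0.0374), with DESeq2 (-0.56, adjusted p = 0.0106) and without replicate 1 of Col-0 roots at 27 °C (-0.59, adjusted p = 0.0435). For SWEET11 and SWEET12 in phyAB roots the responses differed from Col-0 by estimates of -2.18 ± 0.63 and -2.18 ± 0.65, which did not pass (adjusted p = 0.211 and 0.222). That the rise passed in Col-0 and not in phyAB does not show that they differ. For hy5 roots the same differences had 95% intervals of -1.74 to 1.13 for SWEET11 and -2.26 to 0.64 for SWEET12. SUC2, whose estimate among root responses was highest in hy5, differed from Col-0 by 0.61 ± 0.21 (adjusted p = 0.272).

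Between organs, root and shoot libraries were compared on the shared scale. In Col-0 2 members were higher in roots and 6 lower at 27 °C, and 3 higher and 6 lower at 21 °C. Of all 21598 genes tested, 39.6% and 39.4% were at 27 °C and 40.5% and 38.1% at 21 °C. In hy5 the members' counts were 3 higher and 4 lower at 27 °C and 3 higher and 6 lower at 21 °C, against 38.8%, 40.4%, 39.1% and 39.9% of all genes in that order. In phyAB they were 1 higher and 7 lower at 27 °C and 2 higher and 7 lower at 21 °C, against 39.5%, 39.5%, 38.7% and 39.7% of all genes. The median log2 difference over all genes lay between -0.03 and 0.04 in the 6 comparisons. SWEET11, SWEET12, SUC1 and SUC2 were lower in roots in all 6 comparisons, and SWEET13 was higher in all 6.

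SWEET11 averaged 1.79 ± 0.729 CPM in Col-0 roots and 169 ± 12.7 CPM in Col-0 shoots at 21 °C on this scale (SD, n = 3), a log2 difference of -6.59 ± 0.35 (adjusted p = 3.65e-17). At 27 °C it averaged 16.2 ± 3.37 CPM in roots and 227 ± 6.22 CPM in shoots, a difference of -3.81 ± 0.28 (adjusted p = 8.77e-14). SWEET12 differed between roots and shoots of hy5 at 27 °C by -0.90 ± 0.28 (adjusted p = 0.00422), against -5.56 ± 0.38 in Col-0 at 21 °C (adjusted p = 1.41e-14), the range of its organ difference. The Col-0 value at 21 °C moved to -6.31, adjusted p = 1.67e-13 without replicate 3 of the roots. The SWEET11 difference in phyAB at 21 °C, -4.20, moved to -4.80, adjusted p = 1.41e-13 without replicate 2 of the roots. SUC2 had its largest organ difference in hy5 at 21 °C, -4.05 ± 0.12 (adjusted p = 8.35e-24), and its smallest in phyAB at 27 °C, -2.10 ± 0.11 (adjusted p = 1.92e-17).

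**Figure D5:**
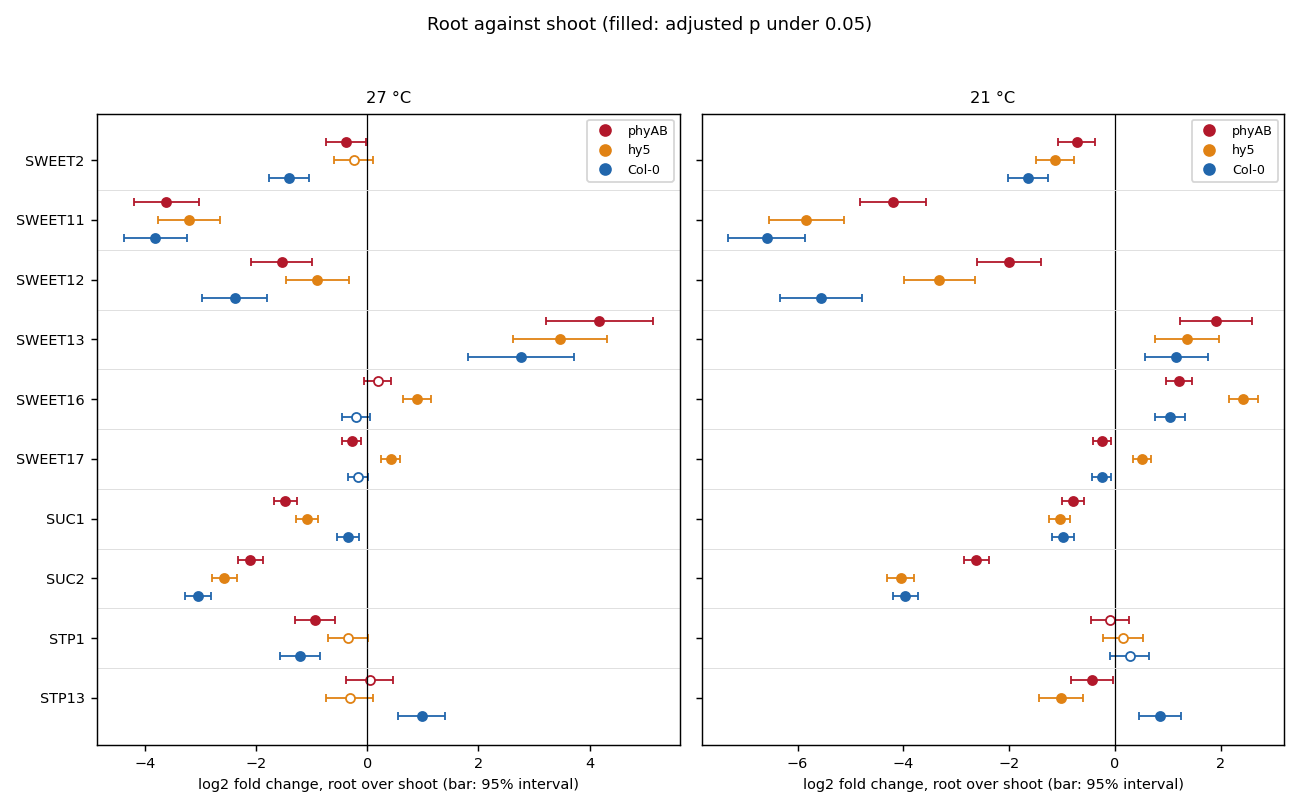
Log2 difference of roots over shoots for each transporter in phyAB, hy5 and Col-0 at 27 °C and 21 °C, with 95% confidence intervals; filled points passed the adjusted threshold of 0.05. SWEET11 lies furthest towards shoots (-6.59 in Col-0 at 21 °C) and SWEET13 furthest towards roots (4.18 in phyAB at 27 °C).

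SWEET13 averaged 4.18 ± 0.357 CPM in phyAB roots and 0.221 ± 0.0803 CPM in phyAB shoots at 27 °C, a log2 difference of 4.18 ± 0.47 (adjusted p = 2.26e-09). In Col-0 at 27 °C it was 2.77 ± 0.47 (adjusted p = 3.36e-06), and 4.14, adjusted p = 8.04e-07 without replicate 1 of the shoots. SWEET16 was higher in roots of all 3 genotypes at 21 °C, by 1.22 ± 0.12 in phyAB, 2.43 ± 0.13 in hy5 and 1.05 ± 0.14 in Col-0 (adjusted p = 1.74e-10, 6.42e-17 and 7.54e-08). At 27 °C it passed in hy5 roots, by 0.89 ± 0.12 (adjusted p = 1.08e-07), with estimates of -0.20 in Col-0 and 0.19 in phyAB. The Col-0 estimate passed without replicate 1 of Col-0 shoots at 27 °C (-0.37, adjusted p = 0.00807).

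STP13 was higher in Col-0 roots than in Col-0 shoots, by 0.98 ± 0.20 at 27 °C (adjusted p = 7.09e-05) and 0.86 ± 0.19 at 21 °C (adjusted p = 0.000183). At 21 °C it was lower in roots of hy5, with a difference of -1.02 ± 0.20 (adjusted p = 3.81e-05), and of phyAB, by -0.43 ± 0.20 (adjusted p = 0.0486), opposite in sign to Col-0; the difference between genotypes in this organ contrast was not tested. The phyAB call was lost without any 1 of replicates 1 and 3 of phyAB roots at 21 °C and replicates 2 and 3 of phyAB shoots at 21 °C (-0.48 to -0.18, adjusted p 0.0520 to 0.433). It was also lost without both phyAB root libraries numbered 3 (-0.45, adjusted p = 0.0791). SWEET17 was higher in hy5 roots by 0.42 ± 0.09 at 27 °C (adjusted p = 6.82e-05) and 0.52 ± 0.09 at 21 °C (adjusted p = 3.19e-06), but lower in roots of Col-0 at 21 °C, with a difference of -0.25 ± 0.08 (adjusted p = 0.00840), and of phyAB, by -0.28 ± 0.09 at 27 °C (adjusted p = 0.00391) and -0.24 ± 0.08 at 21 °C (adjusted p = 0.0108). The Col-0 call at 21 °C was lost without replicate 2 of Col-0 roots at 21 °C (-0.20, adjusted p = 0.0585). At 27 °C the Col-0 difference of -0.16 did not pass (adjusted p = 0.0796). It passed without the 3 shoot libraries numbered 3 at 27 °C (-0.23, adjusted p = 0.0261). Leaving out replicate 1 of Col-0 roots at 27 °C also made it pass (-0.23, adjusted p = 0.0238). The phyAB call at 21 °C was lost without either replicate 3 of phyAB roots at 21 °C or replicate 2 of phyAB shoots at 21 °C (-0.20 to -0.17, adjusted p 0.0545 to 0.0847). It also failed without both phyAB root libraries numbered 3 (-0.17, adjusted p = 0.0809). SWEET2 was lower in roots than in shoots of all 3 genotypes at 21 °C, and these calls passed under every alternative run. Its means there were 24.0, 17.5 and 10.6 CPM in phyAB, hy5 and Col-0 roots, against 39.6, 38.6 and 33.2 CPM in shoots. At 27 °C SWEET2 was lower in Col-0 roots, with a difference of -1.41 ± 0.18 (adjusted p = 2.18e-08), and in phyAB roots by -0.38 ± 0.17 (adjusted p = 0.0443). This phyAB call was lost without any 1 of replicates 1 and 3 of phyAB roots at 27 °C and replicates 1, 2 and 3 of phyAB shoots at 27 °C (-0.42 to -0.30, adjusted p 0.0502 to 0.156). The loss recurred with median-of-ratios size factors (-0.35, adjusted p = 0.0592), with no filter on low counts (-0.37, adjusted p = 0.0507), with DESeq2 (-0.35, adjusted p = 0.0596) and without both phyAB root libraries numbered 3 (-0.30, adjusted p = 0.121). SUC1 was lower in Col-0 roots at 27 °C, with a difference of -0.34 ± 0.10 (adjusted p = 0.00258), a call lost without replicate 1 of Col-0 shoots at 27 °C (-0.18, adjusted p = 0.0871). STP1 was lower in roots at 27 °C in Col-0, with a difference of -1.20 ± 0.18 (adjusted p = 2.88e-07), and in phyAB, by -0.94 ± 0.17 (adjusted p = 1.33e-05), and passed in no genotype at 21 °C.

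The warm response itself was tested between organs. In Col-0 4 members responded more positively in roots and 2 less, where 8.83% and 6.92% of all genes did. In hy5 5 did more and 1 less, where 10.1% and 6.69% of all genes did. In phyAB 2 did more and 3 less, where 7.12% and 4.46% of all genes did. SWEET11 and SWEET12 responded more in roots than in shoots in Col-0, by 2.78 ± 0.45 (adjusted p = 5.95e-05) and 3.17 ± 0.49 (adjusted p = 3.8e-05), and in hy5, by 2.63 ± 0.44 (adjusted p = 7.08e-05) and 2.42 ± 0.43 (adjusted p = 0.000171). The Col-0 value of SWEET12 moved to 3.92, adjusted p = 2.2e-05 without replicate 3 of the roots at 21 °C. In phyAB their differences were 0.58 ± 0.41 (adjusted p = 0.402) and 0.46 ± 0.40 (adjusted p = 0.516) and did not pass. SUC2 responded more in roots by 0.92 ± 0.16 in Col-0 (adjusted p = 0.000128), 1.48 ± 0.16 in hy5 (adjusted p = 1.29e-07) and 0.52 ± 0.16 in phyAB (adjusted p = 0.0261). The phyAB call of SUC2 was lost without any 1 of replicates 1 and 3 of phyAB roots at 21 °C, replicates 1 and 2 of phyAB roots at 27 °C, replicate 1 of phyAB shoots at 27 °C and replicate 2 of phyAB shoots at 21 °C (0.45 to 0.50, adjusted p 0.0527 to 0.0755). It was likewise lost without both phyAB root libraries numbered 3 (0.50, adjusted p = 0.0747).

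SWEET16 went the other way in all 3 genotypes, with differences of -1.03 ± 0.17 in phyAB, -1.54 ± 0.19 in hy5 and -1.25 ± 0.19 in Col-0 (adjusted p = 0.000157, 6.12e-07 and 2.82e-05). STP1 responded less in roots than in shoots in Col-0, with a difference of -1.49 ± 0.25 (adjusted p = 0.000110), and in phyAB, by -0.85 ± 0.25 (adjusted p = 0.0216). The phyAB call of STP1 was lost without any 1 of replicate 2 of phyAB roots at 21 °C, replicate 3 of phyAB roots at 27 °C, replicate 1 of phyAB shoots at 21 °C and replicate 2 of phyAB shoots at 27 °C (-0.79 to -0.64, adjusted p 0.0531 to 0.0976). It failed again without both phyAB root libraries numbered 3 (-0.83, adjusted p = 0.0638). SUC1 differed in opposite directions, by 0.63 ± 0.14 in Col-0 (adjusted p = 0.00212) and -0.68 ± 0.14 in phyAB (adjusted p = 0.00185). SWEET13 responded less negatively in roots than in shoots in hy5, by 2.11 ± 0.55 (adjusted p = 0.00782), and in phyAB, by 2.26 ± 0.67 (adjusted p = 0.0243). The hy5 call of SWEET13 was lost without replicate 1 of hy5 shoots at 27 °C (1.61, adjusted p = 0.0534). The phyAB call of SWEET13 was lost without any 1 of replicate 2 of phyAB shoots at 21 °C and replicates 2 and 3 of phyAB shoots at 27 °C (1.90 to 2.27, adjusted p 0.0692 to 0.101). It was also lost without the 3 shoot libraries numbered 3 at 27 °C (2.05, adjusted p = 0.0761). In Col-0 the SWEET13 difference of 1.61 ± 0.59 did not pass (adjusted p = 0.0612), but passed with DESeq2 (1.65, adjusted p = 0.0202) and without replicate 1 of Col-0 shoots at 27 °C (2.98, adjusted p = 0.00904) or replicate 2 (1.77, adjusted p = 0.0428) or 3 (1.77, adjusted p = 0.0476) of Col-0 roots at 27 °C. SWEET2 responded more in roots in hy5, by 0.89 ± 0.25 (adjusted p = 0.0118).

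Other genes of sugar transport and sucrose cleavage were taken from a list of 60, of which 35 were tested in roots and 41 in shoots. In roots 14 rose and 5 fell with warmth in Col-0, beside 21.7% and 21.8% of all genes. The counts were 13 and 2 in hy5 roots, beside 25.7% and 23.9% of all genes, and 14 and 3 in phyAB roots, beside 19.2% and 19.2%. Of the 41 in shoots, 7 rose and 18 fell in Col-0, beside 22.5% and 23.2% of all genes. The counts were 8 and 10 in hy5 shoots, beside 23.1% and 22.5%, and 6 and 11 in phyAB shoots, beside 21.3% and 22.1%. SWEET3, a SWEET outside the sucrose-exporting clade, had 2.03, 3.15 and 4.11 CPM in Col-0 roots at 27 °C, against 0.253, 0.0847 and 0.300 CPM at 21 °C, and rose by 3.87 ± 0.65 (adjusted p = 0.000105). SFP2, of the ERD6-like monosaccharide transporters, rose in Col-0 roots by 2.27 ± 0.50 (adjusted p = 0.00153) at under 1 CPM. SWEET14, the closest relative of SWEET13 in the exporting clade, had 3.36, 1.50 and 1.68 CPM in Col-0 roots at 27 °C, against 5.92, 7.96 and 7.61 CPM at 21 °C, and fell by 1.71 ± 0.31 (adjusted p = 0.000212). The cell wall invertase family gene CWINV3 fell in Col-0 roots by -0.80 ± 0.10 (adjusted p = 5.65e-06).

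In Col-0 shoots, STP14, a plasma membrane galactose carrier of the STP family, had 15.9, 23.5 and 22.2 CPM at 27 °C, against 7.79, 8.48 and 11.1 CPM at 21 °C, and rose by 1.17 ± 0.18 (adjusted p = 4.72e-05). INT4, an inositol symporter, rose by 1.01 ± 0.11 (adjusted p = 7.37e-07). SWEET14 had 0.257, 0.0508 and 0 CPM at 27 °C, against 1.06, 0.973 and 1.17 CPM at 21 °C, and fell by 3.29 ± 0.62 (adjusted p = 0.000312), the direction of SWEET13 in both organs of Col-0. SWEET4, a hexose carrier, fell by 2.01 ± 0.42 (adjusted p = 0.000731). SWEET14 and SWEET4 stood near or below 1 CPM in shoots, so their fold changes rest on few reads.

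Across the 18 libraries of an organ the members moved together in part, as a description in which the points share genotype and temperature. In roots Pearson's r was 0.881 for SWEET11 and SWEET12, 0.943 for SUC2 and STP1, 0.816 for SWEET11 and SUC2, and -0.814 for SWEET16 and STP13. In shoots it was 0.937 for SWEET16 and STP1, -0.875 for SWEET13 and STP1, -0.844 for SWEET13 and SWEET16, and 0.751 for SUC1 and STP13. By the same measure over all genes tested, the profile most like SWEET11 was that of AT4G32480 in roots (0.973) and of PP2-A1, a phloem protein, in shoots (0.968). The nearest to SUC2 was AT3G54740 in roots (0.971) and HA3, a proton pump of companion cells, in shoots (0.948); PP2-A1 and HA3 are both among the 7 phloem markers. STP1 was nearest to AT1G31950 in roots (0.977) and to MCCA, a subunit of methylcrotonyl-CoA carboxylase, in shoots (0.993). SWEET16 was nearest to ANNAT4, an annexin, in roots (0.969) and to AT3G15450 in shoots (0.981). SWEET13 was nearest to TPR3, a TOPLESS-related corepressor, in roots (0.855) and to DIC3, a mitochondrial dicarboxylate carrier, in shoots (0.950), and SWEET12 to AT1G53610 in roots (0.948) and AT5G38930 in shoots (0.879).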

How the data were processed

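Strand-specific mRNA libraries were read as single 50-base reads, and the deposited values are raw counts of reads per gene in 36 tables, 1 a library; the submitters' processing notes name FastQC, TopHat2, HTSeq, edgeR and TAIR10, without versions. The strand setting of the counting is not given in the sources used here. The tests used edgeR 4.0.16 (R 4.3.3), with filterByExpr by group, TMM factors, glmQLFit and glmQLFTest with 1 term for the groups, fitted to the 18 libraries of each organ, and in all 36 libraries for comparisons between organs. Standard errors are the log2 fold change divided by the root of the F value. RPKM uses the union of exons of TAIR10.1. Rows that name no gene were left out. Only the Col-0 warm response test was run on simulated counts. These had the same dispersion for every gene, so they do not show how the tests fare on these data.

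Libraries were grouped by their titles and characteristics. The text names all 10 members and the targeted genes. Of the sugar lists, it names the 2 largest rises and 2 largest falls among called genes in the Col-0 warm response of each organ. The best correlated gene is given for SWEET11, SWEET12, SWEET13, SWEET16, SUC2 and STP1, and not for the other members. Members and lists were chosen with earlier results of these data known. Alternatives were median-of-ratios factors, no filter, DESeq2 1.42.0, a replicate block, 1 fit of all 36 libraries, leaving out each library, and leaving out both phyAB root libraries numbered 3; leaving out the 3 shoot libraries numbered 3 at 27 °C was added after seeing the data. Promoter windows come from RefSeq.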

Additional observations from a re-analysis of the deposited data

Results flagged for a closer look

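For these results the difference between the warm responses of 2 groups was itself tested with edgeR and passed. Values are differences of log2 fold changes.

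Between genotypes, SUC1 responded more negatively in phyAB than in Col-0 roots (-0.85), and SWEET12 more positively in phyAB than in Col-0 shoots (0.53). SUC1 fell in phyAB roots and did not pass in Col-0 roots. Neither difference passed under every alternative run. The SUC1 call was lost without both phyAB root libraries numbered 3 (edgeR adjusted p = 0.0511), and the SWEET12 call was lost in 7 alternative runs.

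Between organs in Col-0, the response in roots minus that in shoots was 3.17 for SWEET12, 2.78 for SWEET11, 0.92 for SUC2, 0.63 for SUC1, -1.25 for SWEET16 and -1.49 for STP1. In hy5 it was 2.63 for SWEET11, 2.42 for SWEET12, 2.11 for SWEET13, 1.48 for SUC2, 0.89 for SWEET2 and -1.54 for SWEET16. In phyAB it was 2.26 for SWEET13, 0.52 for SUC2, -0.68 for SUC1, -0.85 for STP1 and -1.03 for SWEET16. Of the 10 members, SUC2 and SWEET16 passed in all 3 genotypes, SUC2 with a positive sign each time and SWEET16 with a negative sign each time. The phyAB call of SUC2 was lost in 7 alternative runs, whereas the SWEET16 calls passed in every run. The SWEET13 call was lost in 1 run in hy5 and in 4 in phyAB, and the phyAB call of STP1 in 5.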

How the results depend on the processing

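No call for a member reversed under any alternative run. Of 149 calls, 148 passed with median-of-ratios size factors, 144 with DESeq2 and 144 with no filter on low counts, and 65 of 82 in 1 fit of all 36 libraries. Over all alternatives together, 25 of 38 warm response calls, 28 of 42 between genotypes, 44 of 50 between organs, 13 of 17 differences of responses between organs and 0 of 2 between genotypes passed every time. The number of members called in hy5 minus Col-0 root responses was 1 instead of 0 with median-of-ratios factors, no filter and DESeq2, and 0 to 2 on leaving out 1 library; in phyAB minus Col-0 shoot responses it was 2 instead of 1 with DESeq2, 0 without the 3 shoot libraries numbered 3 at 27 °C, and 0 to 3 on leaving out 1 library. In the phyAB root response 7 members instead of 5 passed with no filter and in 1 fit of all 36 libraries, and 4 to 6 on leaving out 1 library. Without both phyAB root libraries numbered 3, 3 members instead of 5 passed in it, 0 instead of 1 in phyAB minus Col-0 root responses and 3 instead of 5 in phyAB root minus shoot responses, where leaving out 1 library gave 3 to 5. In 1 fit of all 36 libraries, 4 instead of 8 passed in the Col-0 shoot response (5 to 7 on leaving out 1 library), 3 instead of 7 in the phyAB shoot response, 2 instead of 5 between hy5 and Col-0 shoots at 27 °C and 1 instead of 4 at 21 °C. Without the 3 shoot libraries numbered 3, 3 passed between hy5 and Col-0 shoots at 27 °C, and 3 to 5 on leaving out 1 library; between hy5 and Col-0 roots at 21 °C leaving out 1 library gave 3 to 5. The causes were not tested.

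The labels do not say that replicate numbers pair the libraries, and the deviations do not settle it. Same-numbered libraries correlated at -0.15 to 0.22 in roots (median 0.02, 13 of 45 pairs over 0.1) and at -0.14 to 0.41 in shoots (median 0.10, 21 of 45 pairs over 0.1), yet 13 of 18 libraries in each organ were closest to their own number, a hint of pairing from the data and not from the design. With a replicate block, 145 of 149 calls passed. The others were organ differences: SWEET17 in phyAB at 27 °C (-0.20, adjusted p = 0.0631), in phyAB at 21 °C (-0.16, adjusted p = 0.128) and in Col-0 at 21 °C (-0.17, adjusted p = 0.111), and STP13 in phyAB at 21 °C (-0.43, adjusted p = 0.0737). The block gained 9 calls. Among them were the rises of SWEET11 (1.03, adjusted p = 0.0466) and SWEET12 (0.95, adjusted p = 0.0427) in warm phyAB roots, so that 7 members instead of 5 passed there. It also called 1 member instead of 0 in hy5 minus Col-0 root responses and 2 instead of 1 in phyAB minus Col-0 shoot responses. In Col-0 at 21 °C the block called STP1 higher in roots than in shoots (0.45, adjusted p = 0.0196).

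Without TMM factors, 16 of 120 group means, all in shoots, moved by more than their SD. In phyAB at 27 °C they became 28.6 CPM for SWEET2, 119.8 for SWEET11 and 79.5 for SUC2. In phyAB at 21 °C they became 91.3 CPM for SWEET11, 40.8 for SWEET12, 8.57 for SWEET16, 28.1 for SWEET17, 99.7 for SUC1 and 82.9 for SUC2. In hy5 at 21 °C they became 98.8 CPM for SWEET11 and 94.0 for SUC2. In Col-0 they became 165 CPM for SWEET11 and 96.5 for SUC2 at 27 °C, and 52.5 for SWEET12, 23.4 for SWEET17 and 89.5 for SUC1 at 21 °C.

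Depth limits SWEET13 in shoots, with 2 to 52 reads a library. It also limits SWEET11 and SWEET12 in roots at 21 °C: in Col-0 SWEET11 rests on 57, 29 and 58 reads and SWEET12 on 43, 6 and 72, and in hy5 SWEET11 rests on 65, 89 and 21. Groups of 3 were not searched for single libraries that stand apart.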

Other observations

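Genes from the list of 60 other sugar genes were also set against the shares of all genes called higher and lower by genotype. Of the 35 tested in roots, 6 were higher and 7 lower in hy5 than in Col-0 roots at 27 °C, beside 16% and 17.4% of all genes, and 4 higher and 8 lower at 21 °C, beside 16.7% and 18.4%. Among the same 35, 7 were higher and 8 lower in phyAB than in Col-0 roots at 27 °C, beside 14.6% and 16.6% of all genes, and 10 higher and 11 lower at 21 °C, beside 17.2% and 17.9%. Of the 41 tested in shoots, 4 were higher and 5 lower in hy5 than in Col-0 shoots at 27 °C, beside 6.18% and 6.06% of all genes, and 2 higher and 8 lower at 21 °C, beside 8.99% and 8.94%. Among these 41, 13 were higher and 10 lower in phyAB than in Col-0 shoots at 27 °C, beside 18.8% and 23.7% of all genes, and 14 higher and 13 lower at 21 °C, beside 18% and 20.2%. Of the 41 tested in both organs together, the warm response in roots minus that in shoots passed as positive for 11 and as negative for 4 in Col-0, beside 8.83% and 6.92% of all genes. The counts were 11 and 1 in hy5, beside 10.1% and 6.69%, and 10 and 1 in phyAB, beside 7.12% and 4.46%.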
